A study of Mus musculus with 30 samples.

Results

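The 261 olfactory and vomeronasal receptor genes of the table were followed in mouse embryonic stem cells. They are the gene rows, 261 of 20541, whose name starts with Olfr (135 genes), Vmn1r (24) or Vmn2r (102). GENCODE M21 lists 1972 symbols of these families (1407, 327 and 238), so most of the repertoire has no row and was not analysed here. All cells were of the dTKO line, which carries Suv39h1fl/fl ; Suv39h2-/- ; Setdb1fl/fl as its genotype. They were kept in serum with LIF and collected at 0, 3, 12, 24 or 48 h after auxin (100 µg/ml) and dTAG13 (0.5 µM), agents that start the breakdown of degron-tagged proteins. The study's question is how loss of histone H3 lysine 9 methyltransferases alters transcription, with 0 h as baseline. Each time had 3 biological repeats, each sequenced in 2 runs of 1 library (n = 3 for every mean ± SD below). The labels do not say which proteins carry the tags, whether the line is 1 clone, or what the cells at 0 h received in place of the agents.

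These 3 families encode G protein-coupled receptors. Olfr receptors detect odorants in neurons of the main olfactory epithelium, where each neuron stably expresses a single receptor gene. Vmn1r and Vmn2r receptors act in the apical and basal neurons of the vomeronasal organ, and the Vmn2r proteins carry a large extracellular domain. The genes lie in clusters of near-copies, and olfactory receptor clusters are known to carry heterochromatic H3 lysine 9 methylation in olfactory tissue. ERVK elements are long terminal repeat retrotransposons, among them the IAP and ETn families, that the same mark silences in embryonic stem cells.

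TT-seq sequences RNA made during a 10 min pulse of 4-thiouridine. Each value, a scaled read, is a read count over 1 deposited factor per library; none is per length unless stated. Libraries held 16.4 to 22.9 M (mega) reads in genes other than the ribosomal precursor Rn45s. The receptor genes took 873 to 3461 of these reads per library, or 0.00452% to 0.0198%, and 129 to 193 of the 261 had any read in a given library. The labelled cell type was checked against 8 markers: all were transcribed at 0 h (Pou5f1 at 974 and Nanog at 1755 scaled reads), and 7 of the 8 fell at 48 h while Zfp42 rose. Of 15261 genes tested with limma at 48 h, 58.4% were called down and 7.65% up. Omp, the marker of mature olfactory neurons, averaged 6.33 scaled reads at 48 h and 11.7 at 0 h, and Cnga2, its transduction channel, 0.255 and 0.277. Transcripts of the targeted Setdb1 and Suv39h1 changed by -0.21 and -0.09 on the log2 scale at 48 h (limma adjusted p = 0.13 and 0.56), and Suv39h2 fell by 0.44 (adjusted p = 0.001). Rescaled over genes, Setdb1 and Suv39h1 rose by 0.15 (adjusted p = 0.0038) and 0.28 (adjusted p = 5.7e-05) at 48 h, and Suv39h2 was not called (-0.08, adjusted p = 0.12; -0.09, adjusted p = 0.07 with edgeR and TMM). Although its label is -/-, Suv39h2 averaged 803 scaled reads at 48 h and 1091 at 0 h, beside 732 and 846 for Setdb1. The sources used here do not say which part of the gene was altered, and transcripts do not measure the proteins.

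Summed transcription of each family was higher from 12 h on. The 135 Olfr genes summed to 158 ± 8.76, 142 ± 14.8, 369.9 ± 47.9, 487 ± 82 and 576 ± 24.8 scaled reads at 0, 3, 12, 24 and 48 h. The 102 Vmn2r genes, whose rows are longer (median 25242 bp, against 951 bp for Olfr), summed to 592 ± 78.3, 553 ± 40.3, 1095 ± 124, 1541 ± 219.8 and 1945 ± 117. The 24 Vmn1r genes summed to 31.6 ± 4.65, 28.9 ± 4.54, 59.8 ± 9.71, 67.7 ± 10.8 and 59 ± 5.29. At 48 h the sums were 3.64 times (Olfr), 3.28 times (Vmn2r) and 1.87 times (Vmn1r) those at 0 h, and in every family the lowest library at 48 h lay above the highest at 0 h. Per kilobase of listed gene, the sums at 48 h and 0 h were 1.27 and 0.348 for Olfr, 1.21 and 0.647 for Vmn1r, and 0.667 and 0.203 for Vmn2r. Single genes carried much of this: at 48 h Vmn1r53 held 48.5% of the Vmn1r sum, Olfr1372-ps1 24.9% of the Olfr sum and Vmn2r96 19.4% of the Vmn2r sum. The median log2 change over all tested genes was -0.24, 0.18, -0.08 and -0.37 at 3, 12, 24 and 48 h. In bulk RNA, more cells transcribing a gene and more RNA per cell cannot be told apart.

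**Figure D1:**
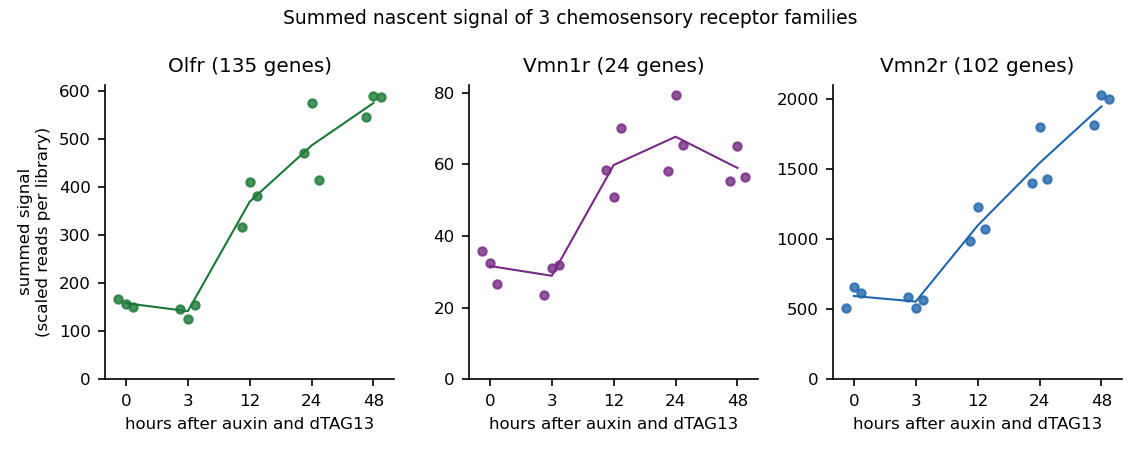
Summed signal of the Olfr, Vmn1r and Vmn2r genes in scaled reads (vertical axes, each from 0) against hours after auxin and dTAG13 (evenly spaced). Points are the 3 libraries of a time and lines join their means; Olfr and Vmn2r climb through 48 h, whereas Vmn1r is highest at 24 h (67.7).

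With all genes that had any read in the fit, 79 of 259 receptor genes were called up at 48 h and 9 down (limma, adjusted p under 0.05 over 20532 genes), against 7.47% of all genes up and 45.4% down. At 3, 12 and 24 h the counts up were 4, 48 and 62, where 0.404%, 9.58% and 6.38% of all genes were called up. The counts down were 0, 1 and 4, where 8.18%, 1.73% and 10.2% were called down; at 3 h, 3 of the 28 genes tested below were down at an unadjusted p under 0.05, and edgeR with TMM called 0. The share called up at 48 h was 38.2% of Vmn2r (39 of 102), 26.1% of Olfr (35 of 134) and 21.7% of Vmn1r genes (5 of 23). Their median log2 changes were 0.60, 0.44 and 0.45. At 48 h, all 3 libraries lay above all 3 at 0 h for 81 of the 261 genes (background 9.21%) and below for 9 (background 56.8%). A gene with 0 reads in any 0 h library could not lie below, and 75 of the 261 had 0 reads in all 3. Among other genes, 1.94% did. Low counts at 0 h also make a call down unlikely, so the counts down and below cannot be read against those backgrounds.

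A narrower test kept genes with a mean of at least 10 scaled reads over all 15 libraries, 28 of the 261: 5 Olfr, 1 Vmn1r and 22 Vmn2r. Called up were 4, 20, 20 and 21 of them at 3, 12, 24 and 48 h, and called down 0, 0, 1 and 3, where 0.636%, 12.9%, 7.21% and 7.65% of 15261 genes were up and 13.5%, 2.07%, 12.2% and 58.4% down. Of the 0 called down at 12 h, 1 had an unadjusted p under 0.05, and edgeR with TMM called 1. At 0 h alone, 16 members reached a mean of 10, 14 of them among the 28. In a fit of genes that did so, 0, 7, 6 and 7 of them were up at 3, 12, 24 and 48 h (background 0.386%, 11.6%, 5.94% and 6.33%) and 0, 0, 3 and 5 down (background 13.5%, 2.16%, 12.5% and 59.3%). The other tested genes passed because they were high later, so the counts over 28 describe them and support nothing. Just below the limit lay Olfr837 (mean 9.41) and Vmn2r38 (9.83), and just above it Olfr307 (10.05) and Vmn2r87 (10.8). All changes of single genes below come from this test.

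**Figure D2:**
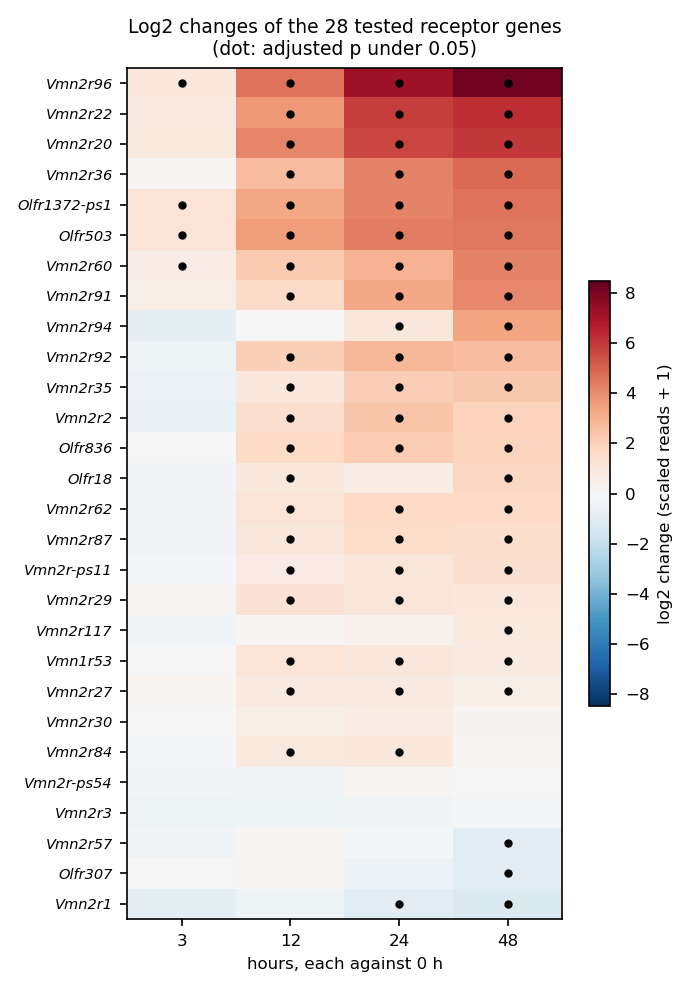
Log2 changes on the scaled reads + 1 scale (colour) of the 28 tested receptor genes (rows, ordered by the change at 48 h) at 3, 12, 24 and 48 h against 0 h (columns). A dot marks an adjusted p under 0.05; Vmn2r96 at the top reaches 8.26, and Vmn2r57, Olfr307 and Vmn2r1 at the bottom are called down at 48 h.

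The largest rises were in Vmn2r genes that were close to silent before treatment. Vmn2r96 (chromosome 17, 18581727 to 18598157, plus strand, mm10) had 0, 0 and 0.857 scaled reads in the 0 h libraries, 3.38, 1.91 and 0 in those of 3 h, 22.8, 31.8 and 34.2 in those of 12 h, 167, 241 and 148 in those of 24 h, and 356, 418 and 358 in those of 48 h. All libraries from 12 h on lay above all those at 0 h and 3 h. Its log2 change was 0.93 ± 0.24 at 3 h (SE; adjusted p = 0.0045) and 8.26 ± 0.24 at 48 h (adjusted p = 1.3e-245). Every SE of a log2 change here comes from the limma fit of all times. It is the same at each time, is drawn toward that of genes of like signal, and is not the spread of the libraries shown. With only the 0 h and 3 h libraries fitted, the limma call of Vmn2r96 at 3 h was lost (adjusted p = 0.32). Since 1 read was recovered at 0 h and 1491 at 48 h, the ratio is 1357 with an exact 95% counting interval of 243 to 53642. Vmn2r22 and Vmn2r20, neighbours on chromosome 6, followed. Vmn2r22 (chromosome 6, 123609758 to 123650635, minus strand) had 0, 0 and 0.857 scaled reads in the 0 h libraries, 2.03, 0.636 and 0.775 in those of 3 h, 17.8, 10.9 and 15.8 in those of 12 h, 63.2, 75.8 and 74.3 in those of 24 h, and 89.4, 92.2 and 97.8 in those of 48 h. Vmn2r20 (chromosome 6, 123385262 to 123418061, minus strand) had 0, 0 and 0 scaled reads in the 0 h libraries, 0.675, 0 and 2.33 in those of 3 h, 16.1, 23.7 and 12.3 in those of 12 h, 50.7, 54.3 and 44.2 in those of 24 h, and 66.5, 69.7 and 58.8 in those of 48 h. Both were near 0 through 3 h, and their changes at 48 h were 6.26 ± 0.31 (adjusted p = 1.2e-85) and 6.04 ± 0.34 (adjusted p = 3.3e-68). Against the floor of 3 reads over its silent group at 0 h, Vmn2r20 was at least 78.0-fold higher at 48 h.

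The annotated promoters of these leading genes, 250 bases before to 50 after the annotated start, are printed from RefSeq (GRCm38.p6). They are shown because 2 of the genes that rose most share almost the same sequence. These starts are the 5' ends of the listed genes, and whether transcription begins there was not tested. From the start on, Vmn2r22 and Vmn2r20 open with ATG, a start codon, and Vmn2r96 does not. Capitals mark TATAAA, read on either strand (as TTTATA here), and TAATTA, the core of LHX homeodomain sites.
Vmn2r96, chr17:18581477-18581776, plus strand: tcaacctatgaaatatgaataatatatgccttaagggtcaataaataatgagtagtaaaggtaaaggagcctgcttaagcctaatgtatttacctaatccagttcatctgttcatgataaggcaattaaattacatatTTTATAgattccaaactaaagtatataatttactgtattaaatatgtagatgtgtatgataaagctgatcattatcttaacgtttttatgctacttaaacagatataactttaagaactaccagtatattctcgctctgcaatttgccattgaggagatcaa
Vmn2r22, chr6:123650586-123650885, minus strand: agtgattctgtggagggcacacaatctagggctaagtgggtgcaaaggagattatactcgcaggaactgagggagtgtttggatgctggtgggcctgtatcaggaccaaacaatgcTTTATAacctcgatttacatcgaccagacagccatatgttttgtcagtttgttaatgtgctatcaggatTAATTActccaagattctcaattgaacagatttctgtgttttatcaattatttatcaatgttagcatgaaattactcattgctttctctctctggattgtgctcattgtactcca
Vmn2r20, chr6:123418012-123418311, minus strand: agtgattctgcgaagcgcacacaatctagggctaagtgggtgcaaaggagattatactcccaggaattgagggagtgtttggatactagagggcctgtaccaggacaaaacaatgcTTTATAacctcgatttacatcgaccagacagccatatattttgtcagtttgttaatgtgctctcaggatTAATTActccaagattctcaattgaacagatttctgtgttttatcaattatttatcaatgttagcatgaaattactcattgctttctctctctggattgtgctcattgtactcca
The promoters of Vmn2r22 and Vmn2r20 were identical at 96% of positions and held both motifs at the same places, 134 and 65 bases before the annotated start. That of Vmn2r96 held TATAAA 112 bases before the annotated start and was identical to Vmn2r22 at 51.1%. Among the risen genes, Vmn2r91 and Vmn2r92 (98%) and Vmn2r35 and Vmn2r36 (91%) were the other near-identical pairs, against a median of 48.4% over 136 pairs. In these windows at annotated starts, the families held few CpG. Of 225 matched members, 91.6% held at most 3 CpG, against 31.4% of 32851 annotated promoters. The median GC content was 37% against 52.7%. CpG content at the sites where transcription begins was not tested. TATAAA was present in 33.8% of the members and 13.6% of all promoters, in 10 of the 17 matched members that rose at 48 h, and TAATTA in 16.9% and 5.29%. Both motifs hold only A and T and are likelier in sequence of low GC content. Whether the shares exceed what that content gives was not tested. The 17 include the near-identical pairs, with each gene counted on its own.

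Further Vmn2r genes rose from a low start. Vmn2r36 had 1.63, 2.5 and 4.29 scaled reads in the 0 h libraries, 4.05, 3.18 and 2.33 in those of 3 h, 22, 20.0 and 21.1 in those of 12 h, 58.2, 74.8 and 64.6 in those of 24 h, and 86.4, 106 and 110.0 in those of 48 h, a log2 change of 4.80 ± 0.26 at 48 h (adjusted p = 3.2e-71). Vmn2r60 had 4.06, 7.49 and 4.29 scaled reads in the 0 h libraries, 10.13, 8.27 and 7.75 in those of 3 h, 24.5, 35.5 and 24.6 in those of 12 h, 42.4, 56.1 and 41.6 in those of 24 h, and 103, 129 and 112 in those of 48 h. Its libraries lay above those at 0 h at every later time, and it changed by 4.24 ± 0.24 at 48 h (adjusted p = 2.6e-69). Vmn2r91 had 59.1, 60.4 and 59.6 scaled reads at 48 h, against 2.44, 1.66 and 4.29 at 0 h, and Vmn2r92, its neighbour, 27.3, 27.9 and 23.7 against 2.44, 2.5 and 6.0. Vmn2r94, in the same cluster, was late: it had 3.25, 4.16 and 5.14 scaled reads in the 0 h libraries, 2.03, 1.91 and 1.55 in those of 3 h, 5.07, 3.64 and 4.39 in those of 12 h, 9.14, 11.2 and 7.08 in those of 24 h, and 53.9, 55 and 48.1 in those of 48 h. All 3 of its libraries at 3 h lay below those at 0 h, and its changes were 0.96 ± 0.37 at 24 h (adjusted p = 0.047) and 3.38 ± 0.37 at 48 h (adjusted p = 1.6e-18). Its call at 24 h was lost without 0 h replicate 1 or 2 or 24 h replicate 1 or 2 (adjusted p = 0.095 to 0.16). The remaining risen Vmn2r genes, Vmn2r35, Vmn2r2, Vmn2r62, Vmn2r87, Vmn2r-ps11, Vmn2r29, Vmn2r117 and Vmn2r27, changed by 0.52 (Vmn2r27) to 2.27 (Vmn2r35) at 48 h. Vmn2r29 led the family at 0 h with 25.4% of its sum, and had 141, 159 and 151 scaled reads in the 0 h libraries, 179, 160.3 and 164 in those of 3 h, 312, 396 and 354 in those of 12 h, 276, 360.2 and 283 in those of 24 h, and 255, 289 and 288 in those of 48 h. It was highest at 12 h and stayed above 0 h (0.88 ± 0.14 at 48 h, adjusted p = 1.2e-09).

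Not every Vmn2r gene rose. Vmn2r1 to Vmn2r7 are known as family C, the co-receptors that basal vomeronasal neurons express beside a specific Vmn2r receptor, and they did not move together. Vmn2r1 had 7.38, 8.52 and 5.35 scaled reads at 48 h, against 14.6, 16.6 and 21.4 at 0 h, and fell by 1.20 ± 0.32 (adjusted p = 0.00056). Its fall by 0.96 at 24 h (adjusted p = 0.018) was lost without 0 h replicate 3 or 24 h replicate 1 (adjusted p = 0.13 and 0.075). Vmn2r2, next to it on chromosome 3, had 20.7, 22.5 and 28.3 at 48 h, against 6.5, 5.82 and 4.29 at 0 h, a rise of 1.93 ± 0.30 (adjusted p = 2.9e-09). Vmn2r3, second in the family at 0 h, averaged 84.6 ± 13.8 at 48 h and 90.3 ± 12.6 at 0 h, a change of -0.10 ± 0.16 (adjusted p = 0.61). Vmn2r57 fell by 0.93 ± 0.26 at 48 h (adjusted p = 0.00091), with 12.6, 10.8 and 9.93 against 17.1, 25 and 24.9 at 0 h. Vmn2r84 was up at 12 h and 24 h (0.85 ± 0.17 and 0.89 ± 0.17, adjusted p = 2.9e-05 and 5e-06) and at 48 h had 53.2, 47.3 and 64.2, against 32.5, 62.4 and 59.2 at 0 h. With edgeR and TMM, the falls of Vmn2r57 (0.64, adjusted p = 0.05) and Olfr307 (0.71, adjusted p = 0.085) at 48 h were not called, and Vmn2r84 was called up (0.45, adjusted p = 0.026). Vmn2r30 and Vmn2r-ps54 had no call at any time in this test, with changes at 48 h of 0.23 ± 0.29 and -0.04 ± 0.28. Vmn2r30 was called up at 24 h when rescaled (0.68, adjusted p = 0.036) and with edgeR and TMM (0.71, adjusted p = 0.037). Vmn2r3 was called down at 12 h in the same 2 settings (-0.53, adjusted p = 0.0013, and -0.54, adjusted p = 0.00098).

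**Figure D3:**
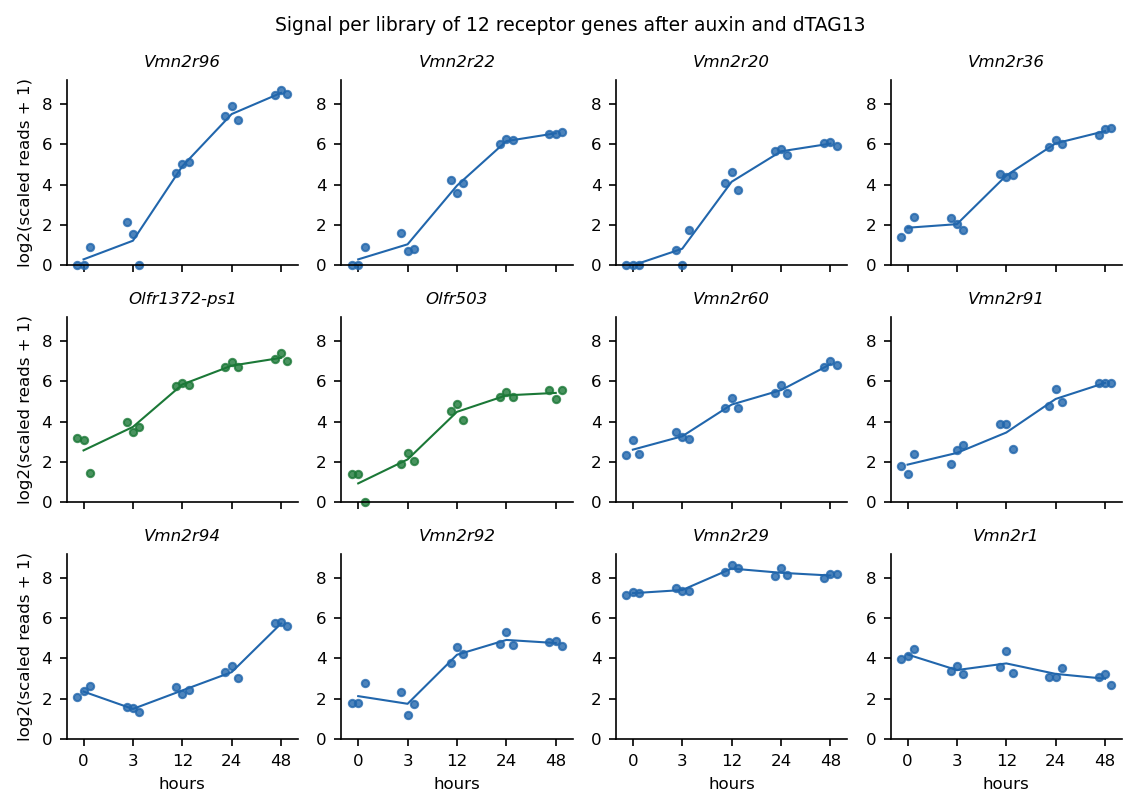
Signal of 12 receptor genes in every library, as log2(scaled reads + 1), at 0, 3, 12, 24 and 48 h. Points are libraries and lines join the time means; the first 10 panels are the 10 largest rises (8.26 to 2.64 on the log2 scale), Vmn2r29 led its family at 0 h, and Vmn2r1 fell.

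Among odorant receptors, an annotated pseudogene rose most. Olfr1372-ps1 (chromosome 11, 52154876 to 52157907, minus strand) had 8.13, 7.49 and 1.71 scaled reads in the 0 h libraries, 14.9, 10.2 and 12.4 in those of 3 h, 53.3, 60.0 and 56.2 in those of 12 h, 103, 122 and 103 in those of 24 h, and 137, 167 and 127 in those of 48 h. Its libraries lay above those at 0 h at every later time, and its change was 1.17 ± 0.20 at 3 h (adjusted p = 5.1e-06) and 4.59 ± 0.20 at 48 h (adjusted p = 5.1e-109). Olfr503, a protein-coding gene on chromosome 7, had 1.63, 1.66 and 0 scaled reads in the 0 h libraries, 2.7, 4.45 and 3.1 in those of 3 h, 22, 28.2 and 15.8 in those of 12 h, 35.7, 44 and 36.3 in those of 24 h, and 46.5, 34.1 and 46.6 in those of 48 h, and changed by 4.49 ± 0.31 at 48 h (adjusted p = 1.6e-45). Olfr836 and Olfr18, in a cluster on chromosome 9, had 43.6, 50.4 and 42.8 and 25.8, 45.7 and 52.7 scaled reads at 48 h, against 13.8, 10.8 and 10.3 and 11.4, 13.3 and 8.57 at 0 h. Their changes were 1.89 ± 0.23 (adjusted p = 1.7e-15) and 1.77 ± 0.27 (adjusted p = 3.9e-10). Olfr307 had 4.43, 8.52 and 3.82 at 48 h, against 10.57, 14.1 and 10.3 at 0 h, and fell by 1.00 ± 0.34 (adjusted p = 0.0061). Olfr153, the highest Olfr gene at 0 h, was below the minimum for this test and had 1.48, 0 and 1.53 at 48 h, against 16.3, 10.8 and 15.4 at 0 h, without overlap.

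In the Vmn1r family only Vmn1r53 was high enough to test. It had 21.1, 18.3 and 12 scaled reads in the 0 h libraries, 17.6, 15.3 and 15.5 in those of 3 h, 38, 30.0 and 50.9 in those of 12 h, 28.3, 40.2 and 35.4 in those of 24 h, and 26.6, 31.8 and 27.5 in those of 48 h. The libraries at 12 h lay above those at 0 h, and its change was 1.17 ± 0.23 at 12 h (adjusted p = 1.5e-05) and 0.74 ± 0.23 at 48 h (adjusted p = 0.0033). Vmn1r90, which shares its strand and position with Nlrp5-ps, averaged 7.33 ± 1.73 at 48 h and 7.24 ± 1.38 at 0 h, and Vmn1r91 5.35 ± 2.4 and 1.95 ± 1.27.

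Of the 28 tested genes, 4 were first called up at 3 h (Vmn2r96, Vmn2r60, Olfr1372-ps1 and Olfr503), 16 at 12 h, Vmn2r94 at 24 h and Vmn2r117 at 48 h. Among the 21 that were up at 48 h, 15 had their highest mean at 48 h, 3 at 24 h and 3 at 12 h. Set against 12 h, 13 of the 28 were higher at 48 h and 5 lower, where 3.54% and 76.2% of all tested genes were. Part of the 28 passed the minimum mean through high late signal, so these counts describe them and support nothing. The number of calls at 3 h moved with the settings. It was 6 with a pseudocount of 0.5 (Vmn2r20 and Vmn2r22 gained) and 5 when rescaled (Vmn2r29 gained). It was 1 with a pseudocount of 5 or with only the groups compared, 2 (TMM) or 1 (deposited scaling) with edgeR on the recovered reads, and 2 without 0 h replicate 3, 3 h replicate 1 or 3 h replicate 2. Vmn2r96, Vmn2r60 and Olfr503 lost their calls at 3 h with a pseudocount of 5, with only the groups compared, with edgeR under both scalings and without 3 h replicate 2. Vmn2r96 also lost it with no trend (adjusted p = 0.096), without 0 h replicate 2 (adjusted p = 0.061) and without 3 h replicate 1 (0.47, adjusted p = 0.23). Olfr503 also lost it without 0 h replicate 3 (0.72, adjusted p = 0.13). Vmn2r60 also lost it with no minimum (adjusted p = 0.065) and without 0 h replicate 1 or 3 or 3 h replicate 1 (adjusted p = 0.13 to 0.16). Olfr1372-ps1 lost it without 0 h replicate 3 (0.60, adjusted p = 0.063), and in none of the other alternatives tried. At 12 h, Vmn2r87 and Vmn2r35 lost their calls with edgeR under both scalings and when any of 4 single libraries was left out (replicates 2 and 3 of 12 h for both genes, and of 0 h replicates 1 and 3 for Vmn2r87 and 1 and 2 for Vmn2r35). Losses at 12 h with a single library left out also met Vmn2r62 (0 h replicate 3, 12 h replicate 1 or 2), Vmn2r-ps11 (0 h replicate 1, 12 h replicate 3), Vmn2r27 (0 h replicate 1, 12 h replicate 2), Olfr18 (0 h replicate 3) and Vmn2r84 (0 h replicate 1), with adjusted p = 0.05 to 0.17. Vmn2r-ps11 lost its call with edgeR and TMM as well. At 24 h Vmn2r27 lost its call without 0 h replicate 1 (adjusted p = 0.12), and Olfr18 was called up with no trend, when rescaled and with edgeR and TMM. At 48 h the call of Vmn2r27 was lost without 0 h replicate 1 (0.25, adjusted p = 0.29) and that of Vmn1r53 without 0 h replicate 3 (0.51, adjusted p = 0.07).

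Silence before treatment was common. At 0 h, 75 of the 261 receptor genes (28.7%) had 0 reads in all 3 libraries, against 394 of 20280 other genes (1.94%): 45 Olfr, 12 Vmn1r and 18 Vmn2r. Reads appeared in at least 1 library in 28, 58, 61 and 57 of the 75 at 3, 12, 24 and 48 h, where the background over all 469 silent genes was 60.1%, 70.8%, 67.8% and 71.0%. The shares at 3 h and 48 h were 37.3% and 76.0%, beside 64.5% and 70.1% of the 394 others. At least 10 reads over the 3 libraries were reached by 0, 3, 11 and 14 of the 75, where the background over all silent genes was 0.0%, 2.13%, 6.61% and 9.59%. At 48 h that was 14 of 75 (18.7%) against 31 of 394 others (7.87%), made up of 9 Olfr, 0 Vmn1r and 5 Vmn2r genes. Only 2 receptor genes had no read at any time, and 16 with reads at 0 h had none at 48 h. After Vmn2r20, the silent genes with most reads at 48 h were VMN2R122 (21.4, 16.3 and 22.9 scaled reads), Olfr791 (14, 14.7 and 15.3), Vmn2r44 (13.3, 9.3 and 17.6) and Vmn2r121 (6.65, 5.42 and 14.5). Against the floor of 3 reads over the group at 0 h they were at least 24.3-fold, 17.6-fold, 16.1-fold and 10.62-fold higher. Silence was read from the same libraries as the later change, so these counts carry no test.

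**Figure D4:**
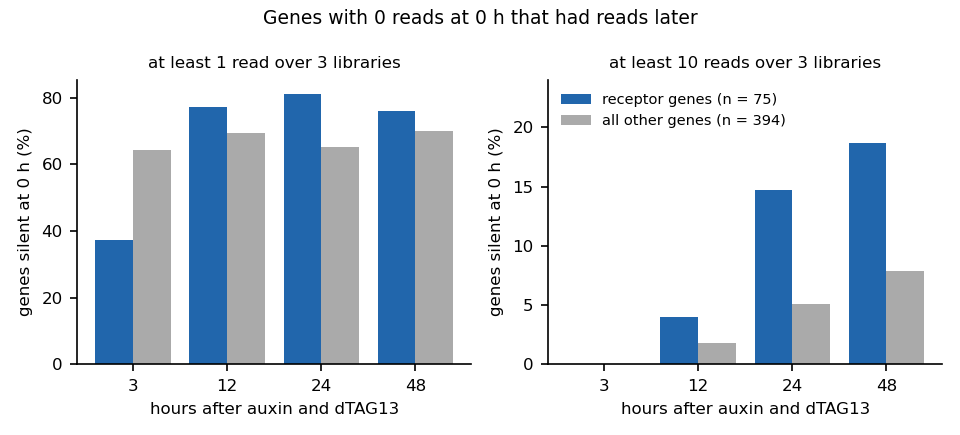
Share of genes with 0 reads at 0 h (vertical axes, percent from 0) that had at least 1 read (left) or at least 10 reads (right) over the 3 libraries of 3, 12, 24 and 48 h. Blue bars are the 75 receptor genes and grey bars the 394 other genes; at 48 h the right panel shows 18.7% and 7.87%.

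At 48 h the share of receptor genes called up stepped down with distance to the nearest ERVK copy. The table lists 41885 ERVK copies, and 22 receptor genes overlapped one on either strand, 60 had one within 5 kb, 98 at 5 to 20 kb and 80 beyond, while VMN2R122 lies on a sequence with none. With any read as the only filter, 72.7%, 38.3%, 26.8% and 16.5% of these classes were called up at 48 h (16 of 22, 23 of 60, 26 of 97 and 13 of 79). The same classes of all other genes gave 12.2%, 8.32%, 6.0% and 5.63%, beside 7.47% of all genes. At 12 h the 4 shares were 59.1%, 28.3%, 8.25% and 12.7% in receptor genes, with the 5 to 20 kb class below the farthest, and 16.6%, 11.9%, 9.02% and 6.37% in other genes. By family at 48 h, the 4 classes gave 70.0%, 54.5%, 34.3% and 17.1% of Vmn2r genes, and 2 of 2, 35.9%, 22.6% and 17.5% of Olfr genes. For Vmn1r they were 3 of 10 within 5 kb, 2 of 9 at 5 to 20 kb and 0 of 4 beyond, with none overlapping. Summed signal was 1085, 357, 835 and 282 scaled reads at 48 h, against 346, 87.0, 228 and 121 at 0 h. Relative to 0 h, the summed rise was thus not largest in the overlapping class and did not step down with distance. The 22 overlapping genes held 346 scaled reads at 0 h, against 87.0 for the 60 genes within 5 kb. More reads make a call easier, and the part of this in the shares was not tested. Across 258 genes that share libraries and clusters, distance and change at 48 h had a Spearman rho of -0.27, and length and change 0.10. The overlapping genes were long (median 33733.5 bp, against 993 bp within 5 kb), and the part of length was not tested within classes. The median gap was 10031.5 bp for receptor genes and 15592.5 bp for other genes. Of the silent genes, 1 of 2, 4 of 22, 6 of 31 and 2 of 19 in the 4 classes reached 10 reads at 48 h, beside 5 of 16, 8 of 46, 12 of 95 and 6 of 237 of the other silent genes. Within 5 kb these shares were 18.2% and 17.4%, and beyond 20 kb 10.5% and 2.53%.

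**Figure D5:**
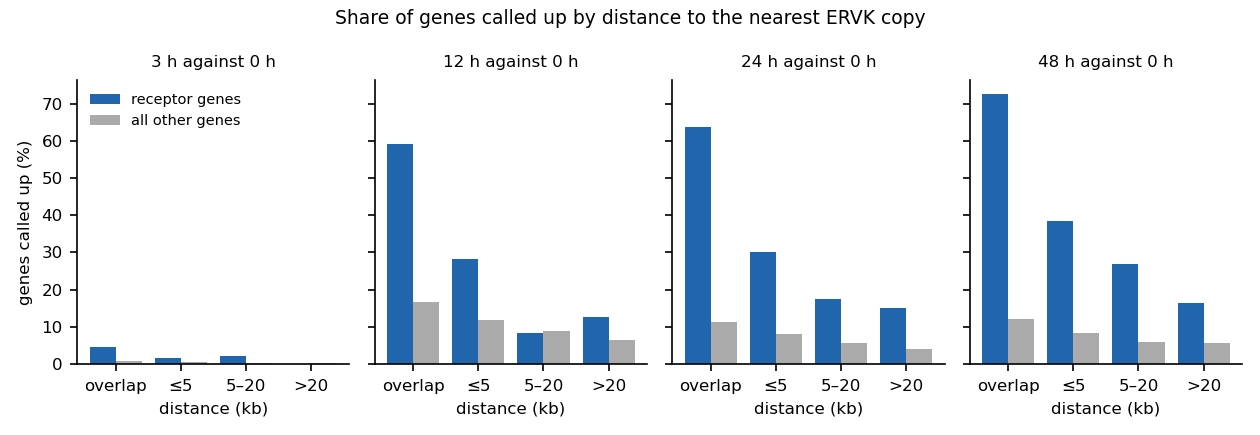
Percent of genes called up (vertical axis, from 0) by distance to the nearest ERVK copy (overlapping, up to 5 kb, 5 to 20 kb, beyond 20 kb), 1 panel for each of 3, 12, 24 and 48 h against 0 h. Blue bars are receptor genes and grey bars all other genes; at 48 h the blue bars step down over the 4 classes to 16.5% and the grey bars to 5.63%.

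The ERVK copies beside the receptor genes rose as well. Within 20 kb of a receptor gene lay 565 copies, of which 48 had a mean of at least 10. Of these, 1, 31, 41 and 39 were called up at 3, 12, 24 and 48 h (limma over 13519 repeat copies, background 2.5%, 20.8%, 25.4% and 26.0%), beside 305, 1809, 2401 and 2469 of all 3464 tested ERVK copies. Together the 565 copies summed to 5613 scaled reads at 48 h and 718 at 0 h. The median log2 change at 48 h was 3.70 over the 48 tested copies, against 4.43 over all 3464 tested ERVK copies. Such a rise was therefore not particular to copies near receptor genes. Part of the 48 passed the minimum mean through high late signal, so the counts called up describe them and support nothing. Among the 21 receptor genes up at 48 h, the nearest copy overlapped 10, 5 on the same and 5 on the opposite strand, lay upstream of 6 on the same strand, and downstream of 5, 4 of them on the same strand. An MMETn-int copy, part of an ETn element, lies opposite in strand inside Vmn2r22 and shares 3157 bases with it; it averaged 156 scaled reads at 48 h and 5.81 at 0 h. The MMETn-int copy inside Vmn2r20, also opposite, averaged 106 and 1.1. An MMERVK10C-int copy on the strand of Olfr1372-ps1 shares 254 bases with it, 131 of them exonic, and averaged 464 at 48 h and 19.8 at 0 h. The IAPEz-int copy inside Vmn2r35, on its strand, shares 2942 bases and averaged 55 and 2.99. Those inside Vmn2r91 (IAPEz-int, 654 bases, 1.99 and 0) and Vmn2r60 (IAPLTR1a_Mm, 339 bases, 3.29 and 0) were low at both times. Reads of a copy on the gene's strand may count in both rows, and the part of such reads in a gene's rise was not tested.

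Non-coding units near the receptor genes, which the authors listed by position, rose as well. At or within 5 kb of a receptor gene lay 96 such units, and 47 reached a mean of 10. Called up were 12, 38, 40 and 40 at 3, 12, 24 and 48 h, where 7.74%, 29.4%, 30.4% and 29.3% of 15730 tested units were up. At 48 h 4 fell, where 39.4% of all tested units did. Their median log2 change at 48 h was 2.96, against -0.28 over all units. Part of the 47 units passed the minimum mean through high late signal, so their counts and median describe them and support nothing. Of 43 receptor genes with a tested unit, 35 had a rising one, 11 of them among the 21 genes up at 48 h. A single unit can count for several neighbouring genes, and the matching share of other genes was not taken. The count per gene is therefore a description only. A unit on the strand of Vmn2r96 ends 926 bp upstream of it (chr17:18555801-18580801) and averaged 3195 scaled reads at 48 h and 1.96 at 0 h, or 128 and 23.0 per kilobase for the unit and the gene at 48 h. A unit opposite in strand to Vmn2r22 (chr6:123642601-123654601) averaged 2583 and 7.18, and holds the MMETn-int copy on its own strand. The unit that ends 529 bp upstream of Vmn2r92, also downstream of Vmn2r91 on their strand, averaged 530 and 40.3. Olfr1372-ps1 lies within a unit on its strand (chr11:52153001-52168001) with 603 and 39.7, so the same reads may count in both. Genes with little change can sit beside large ones: the unit opposite Olfr913 and Olfr914 averaged 4528 at 48 h and 65.1 at 0 h, while the genes had 2.22, 2.32 and 0.764 and 0.738, 0 and 0.764 scaled reads at 48 h.

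The genes that rose lay in several receptor clusters. Joining receptor genes within 1 Mb gave 57 groups, 25 of them single genes, and 12 held a tested gene. In 11 of these 12 a gene was up at 48 h, in 6 of them at least 2. Because high late signal let part of the tested genes pass the minimum mean, these cluster counts are descriptions and support nothing. On chromosome 17 (17703941 to 21262863), 20 vomeronasal genes summed to 564 scaled reads at 48 h and 20.1 at 0 h, and all 4 tested genes rose (Vmn2r91, Vmn2r92, Vmn2r94 and Vmn2r96). Clusters also held unlike neighbours: on chromosome 7 Vmn2r60 and Vmn2r62 rose and Vmn2r57 fell, and on chromosome 3 Vmn2r2 and Vmn2r-ps11 rose and Vmn2r1 fell. Near-copies can exchange reads, depending on how reads with several positions were counted. Over 259 genes, a median of 7.63% of the 50-base words of a gene's GENCODE transcripts occurred in transcripts of another GENCODE receptor gene. Among the 21 genes up at 48 h, 4 shared over 50%: Vmn2r35 (94.1%), Vmn2r-ps11 (76.8%), Vmn2r36 (65.1%) and Vmn2r91 (62.9%), and their values are uncertain. Sequence outside these transcripts was not compared, so values of the other genes may be uncertain as well. Vmn2r-ps159 and VMN2R123 cover the same locus with identical values, and Vmn2r-ps11 contains Vmn2r7.

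Most genes of the machinery that olfactory and vomeronasal neurons use were not called up. Of 27 genes of olfactory transduction and receptor choice, 19 were tested, and 3 rose and 8 fell at 48 h (7 and 5 with edgeR and TMM; median -0.24, against -0.37 over all tested genes, of which 7.65% rose and 58.4% fell). The 3 that rose were Slc8a1 (log2 change 0.77, limma adjusted p = 1.2e-07), Lhx2 (0.76, adjusted p = 0.011) and Tshz1 (0.62, adjusted p = 6.6e-05). Among the 8 that fell, the 4 with the smallest adjusted p follow. Ebf1, a transcription factor that acts on receptor promoters, averaged 422 ± 24.5 in 48 h libraries and 1203 ± 61.2 in 0 h libraries (log2 change -1.51 ± 0.13, adjusted p = 9e-31). Ldb1, the cofactor that joins receptor enhancers, averaged 340.1 ± 28.6 in 48 h libraries and 654 ± 40.5 in 0 h libraries (log2 change -0.94 ± 0.13, adjusted p = 4.2e-12). Cngb1, a subunit of the olfactory transduction channel, averaged 56.4 ± 3.09 in 48 h libraries and 133 ± 3.6 in 0 h libraries (log2 change -1.22 ± 0.16, adjusted p = 1.8e-13), and Ric8b, the chaperone of the olfactory G protein, 2069.6 ± 84.1 in 48 h libraries and 3532 ± 260.3 in 0 h libraries (log2 change -0.77 ± 0.12, adjusted p = 4.9e-09). Of 18 genes of vomeronasal transduction, 7 were tested, and 0 rose (0 at an unadjusted p under 0.05, 3 with edgeR and TMM) and 2 fell (0 with edgeR and TMM): Meis2 by 0.38 (adjusted p = 0.0057) and B2m by 0.36 (adjusted p = 0.045). The fall of B2m was also lost without any 1 of the 3 libraries at 0 h or without 48 h replicate 2 or 3 (adjusted p = 0.074 to 0.16). Of 24 other chemosensory receptors, 6 were tested. Taar7d, a trace amine receptor of the olfactory epithelium, had 0 reads at 0 h and 36.9, 27.9 and 40.5 scaled reads at 48 h (log2 change 5.16, adjusted p = 1.9e-39). Ms4a4d rose by 0.77 (adjusted p = 0.00012) and Ms4a10 fell by 0.71 (adjusted p = 0.011). The fall of Ms4a10 was not called when rescaled (-0.37, adjusted p = 0.14), with edgeR and TMM (-0.41, adjusted p = 0.15) or without 0 h replicate 1 (adjusted p = 0.067). All 10 markers of olfactory or vomeronasal neurons summed to 3573 to 3747 scaled reads at 48 h and 6363 to 7140 at 0 h, and 1 of 9 tested rose and 4 fell.

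Markers of another cell state were also higher at later times. The 7 markers of 2-cell-like cells, among them the Zscan4 genes, summed to 1309 to 1570 scaled reads at 48 h and 32.5 to 42.9 at 0 h, and all 4 tested rose at 12, 24 and 48 h. Of all tested genes, 12.9%, 7.21% and 7.65% rose at these times, and 58.4% fell at 48 h. With sums this low at 0 h, part of the 4 tested markers passed the minimum mean through high late signal. Their count is a description and supports nothing. The part of the 2-cell-like markers in the receptor genes' rise was not tested. At 48 h, 0 of 3 tested markers of primitive endoderm rose or fell (0 at an unadjusted p under 0.05; 2 up with edgeR and TMM), 1 of 4 of neural progenitors rose (2 with edgeR and TMM), and of 3 of trophectoderm 1 rose and 2 fell (1 and 0 with edgeR and TMM). Over the 5 time means, the profile of Vmn2r96 was nearest to those of Nlrp4c, Slc22a13 and Vmn2r22 (Pearson r from 0.998 to 0.999 on log2 means). That of Vmn2r22 was nearest to Vmn2r96, Alox15 and Gpr182, and that of Vmn2r20 to Btnl9, Bambi and Clec2i. With 5 points, 50 to 58 of 15261 genes had an r over 0.99 with each.

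The authors' deposited table calls 0, 18, 35 and 39 of the 261 receptor genes up at 3, 12, 24 and 48 h, where it calls 0.0779%, 1.57%, 2.18% and 2.78% of all 20541 genes up. It calls 0, 0, 1 and 2 receptor genes down, where it calls 0.0195%, 0.122%, 1.39% and 5.02% of all genes down. Low counts at 0 h limit these calls down as well. The genes it calls down are Olfr153 at 24 h and 48 h and Olfr985 at 48 h. Of those it calls up, 13, 17 and 17 were tested here at 12, 24 and 48 h, and all of these were also called up here.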

How the data were processed

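Nascent RNA of 15 libraries, given as 30 samples because each library was sequenced in 2 runs, was read from the authors' table of transcription units. The submitters' processing notes name STAR 2.5.2a, deepTools, DESeq2 and the genome build mm10, also called GRCm38. The deposited values are signal: the authors divided the reads of a unit by 1 size factor per library. Whole reads were recovered by dividing by each library's smallest step (0.636 to 0.936): 99.9972% to 99.9995% of values came out whole within 0.05. The read counter, strandedness, treatment of multi-position reads and gene annotation were not given in the sources used here. Antisense, overlapping and near-identical genes are therefore uncertain. Start positions of repeat copies may count from 0, so distances can be off by 1 bp.

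The main test was limma 3.58.1 with trend (R 4.3.3, Python 3.11, matplotlib) on log2(value + 1), for genes with a mean of at least 10 over the 15 libraries, each later time against 0 h in 1 fit, two-sided, with Benjamini-Hochberg adjustment over all 15261 genes; a call is an adjusted p under 0.05. The same test was run over repeat copies and over non-coding units, each class on its own. Fold changes on this scale understate the change of low genes. The test was checked on simulated data. Alternatives were another pseudocount, other minimums, rescaling, no trend, only the groups compared, a replicate block, edgeR 4.0.16 on the recovered reads and leaving out each library. Genes were named by a rule: tested members with a call, the 3 highest of each family at 0 h and 48 h, the 5 silent genes with most reads at 48 h, the nearest ERVK copies of risen genes, up to 4 called genes of each other list, the targeted genes and the 3 nearest profiles of the 3 largest rises. Clusters, non-coding units, the risen genes of olfactory transduction and other examples were chosen after their values were seen. The receptor families and all gene lists were chosen with earlier results of these data known. Promoters come from RefSeq tables of GRCm38.p6, and 225 of 261 genes matched. The intervals and floors cover counting error only.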

Additional observations from a re-analysis of the deposited data

Results flagged for a closer look

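Changes were compared between 48 h and 12 h within the limma fit, and 18 of the 28 tested receptor genes differed between these times (adjusted p under 0.05). Since part of the 28 passed the minimum mean through high late signal, the counts below describe them and support nothing. A higher change at 48 h than at 12 h was seen in 13, where 3.54% of 15261 genes did. The log2 differences (48 h minus 12 h) were 3.64 for Vmn2r96, 3.32 for Vmn2r94, 2.60 for Vmn2r22, 2.46 for Vmn2r91, 2.20 for Vmn2r36, 2.00 for Vmn2r60 and 1.89 for Vmn2r20. They were 1.38 for Vmn2r35, 1.32 for Olfr1372-ps1, 0.94 for Olfr503, 0.87 for Olfr18, 0.63 for Vmn2r117 and 0.61 for Vmn2r-ps11. A lower change at 48 h was seen in 5, where 76.2% of all genes did so: Vmn2r29 (-0.35), Vmn2r84 (-0.71), Vmn2r1 (-0.76), Vmn2r57 (-1.10) and Olfr307 (-1.19). Vmn2r94 had means of 52.4 scaled reads at 48 h and 4.37 at 12 h, beside 4.18 at 0 h.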

How the results depend on the processing

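No called change of a tested receptor gene turned its sign under the alternatives run. At 3 h the 4 calls up became 1 (pseudocount 5; only the groups compared; edgeR with the deposited scaling), 2 (edgeR with TMM) or 0 (minimum at 0 h alone), 6 with a pseudocount of 0.5 and 5 when rescaled, and 2 to 4 when a library was left out. The 0 calls down at 3 h became 2 (no trend; only the groups compared; edgeR with the deposited scaling), 1 (replicate block) and 0 to 1 with a library left out. With no minimum the counts up at 12, 24 and 48 h were 48, 62 and 79 and the counts down 1, 4 and 9. With the minimum at 0 h alone they were 7, 6 and 7 up, and 3 and 5 down at 24 and 48 h; fewer receptor genes were tested. At 12 h, 1 was down when rescaled and with edgeR and TMM, and at 48 h 1 with edgeR and TMM; the cause was not tested. Leaving out a library gave 15 to 20, 18 to 20 and 20 to 21 up, and 0, 0 to 1 and 3 down, at 12, 24 and 48 h. The log2 ratios of the sums at 48 h were 1.5 (Olfr) and 1.40 (Vmn2r) without the leading gene, 2.22, 1.26 (Vmn1r) and 2.08 when rescaled, and 1.83 to 1.91, 0.79 to 1.00 and 1.61 to 1.80 with a library left out. Rescaling raises every change at 48 h by about the fall of the median gene (-0.37). At most 2 reads at 0 h made 153 genes silent. Receptor genes overlapping or within 5 kb of an ERVK copy were called up in 47.6% (39 of 82) and the others in 22.2% (39 of 176); within 20 kb these shares were 36.3% and 16.5%, and counting only transcribed copies (mean of at least 10, which uses the copies' own values) the near share was 85.7% (12 of 14). Among the other genes, at 48 h B2m changed by 0.0034 when rescaled, Setdb1 by 0.15 (rescaled) and 0.14 (edgeR, TMM), and Suv39h1 by 0.28 and 0.27; at 3 h Setdb1 changed by 0.15 and 0.15. Deviations of same-numbered libraries correlated across genes from -0.043 to 0.079 over 30 pairs, 0 over 0.1. This cannot see a shift that all genes of a library share, so pairing by replicate number was not settled. Over all genes, the replicate block took the limma calls from 2053 to 3126 down at 3 h and from 1972 to 2612 up at 12 h. Among calls of receptor genes the block's only change was the fall of Vmn2r3 at 3 h (-0.44, adjusted p = 0.032). At this depth, a receptor gene with 0 reads in 3 libraries could still hold up to 3 reads.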
